A study of Mus musculus with 21 samples.

Results

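Embryonic globins and other genes of the red cell lineage were followed through development in whole testes. All animals were wild type and of the outbred CD-1 stock. The genes were Hbb-bh1, Hba-x and Hbb-y (embryonic globins), Alas2, Slc4a1, Rhag, Klf1, Gata1 and Ahsp, chosen by symbol, and every probe set that the platform annotation assigns to 1 of these symbols alone was taken. This gave 14 of the 45101 probe sets, for 8 of the 9 genes. Ahsp was not analysed here. The 20 testis arrays covered 6 stages, at gestation day (gd) 11 (5 arrays, each a pool of 2, Theiler stage 18), gd12 (3 arrays, each a pool of 5, stage 20), gd14 (3 arrays, stage 22), gd16 (3 arrays, stage 24), gd18 (3 arrays, stage 26) and postnatal day (pnd) 2 (3 arrays, stage 27), with no pooling from gd14 on per the sample labels. The reference was a single array of RNA from 8 entire pups (4 male, 4 female) taken at pnd 0.5. The series' design text instead gives 3 samples a stage, each from 1 animal with its own dam, so for gd11 and gd12 the labels were followed, and the spread between arrays there is one between pools.

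In the mouse, the first red cells are primitive erythroid cells, which are made in the yolk sac and enter the blood with their nuclei, and which carry the embryonic beta-type globins Hbb-bh1 and Hbb-y and the embryonic alpha-type globin Hba-x. They are later replaced by definitive red cells from the fetal liver, which use the adult-type globins, and within the primitive lineage Hbb-bh1 is known as the earlier and Hbb-y as the later embryonic beta-type globin. Alas2 makes the first haem precursor in red cells, Slc4a1 (band 3) and Rhag are red cell membrane proteins, and Klf1 and Gata1 are transcription factors that act on globin and haem genes. Gata1 is also known from Sertoli cells of the testis.

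The stretches just before the start sites of 2 embryonic globins, 2 adult-type globins and Alas2 are shown because embryonic globin signal fell over the fetal stages while several adult-type globin probe sets and Alas2 were higher at gd16 and gd18 than at gd11. They are RefSeq sequences of GRCm38.p6, cover the 130 bases before the start site, and run 5′ to 3′ on the gene's strand. Capitals mark matches, on either strand, to GATAA (the core that GATA factors bind), CACCC (the CACCC box), CCNCNCCC (a longer form that Klf1 binds, which can overlap CACCC) and CCAAT (the CCAAT box).
Hbb-y: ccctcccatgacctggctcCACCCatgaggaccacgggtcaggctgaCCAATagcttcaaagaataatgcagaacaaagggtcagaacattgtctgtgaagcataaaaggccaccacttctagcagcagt
Hba-x: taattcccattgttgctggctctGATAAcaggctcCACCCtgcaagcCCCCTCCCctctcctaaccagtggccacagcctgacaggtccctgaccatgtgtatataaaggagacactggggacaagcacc
Hbb-bs: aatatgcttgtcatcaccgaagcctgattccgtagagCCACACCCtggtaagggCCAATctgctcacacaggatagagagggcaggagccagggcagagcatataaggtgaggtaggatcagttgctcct
Hba-a1: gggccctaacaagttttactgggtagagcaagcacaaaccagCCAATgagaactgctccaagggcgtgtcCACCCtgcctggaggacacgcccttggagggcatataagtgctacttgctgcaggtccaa
Alas2: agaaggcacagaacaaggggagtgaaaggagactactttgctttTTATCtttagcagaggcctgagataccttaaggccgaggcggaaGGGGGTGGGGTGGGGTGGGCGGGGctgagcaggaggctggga
These lie at chr7:103853208-103853337 on the minus strand (Hbb-y), chr11:32276470-32276599 on the plus strand (Hba-x), chr7:103827929-103828058 on the minus strand (Hbb-bs), chr11:32283542-32283671 on the plus strand (Hba-a1) and chrX:150547287-150547416 on the plus strand (Alas2).

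Promoter entries were found for 6 of the 9 genes. Hbb-bh1, Slc4a1 and Ahsp had none in the table used. Over the 250 bases before the start site, CACCC matched in all 6 (Hbb-y, Hba-x, Alas2, Klf1, Gata1 and Rhag) and in Hbb-bs and Hba-a1, against 52% of 32851 promoters. GATAA matched once in 5 of the 6, the exception being Gata1, against 22.6% of all promoters. CCAAT matched in Hbb-y, Klf1, Rhag, Hbb-bs and Hba-a1 but not in Hba-x, Alas2 or Gata1, against 33.8% of all, and CCNCNCCC matched in Hba-x, Alas2, Gata1 and Hbb-bs, against 45.9%. In Alas2, 3 CACCC matches and 4 CCNCNCCC matches overlap in a single run between positions -42 and -19. A match is a description of letters and not of binding.

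Values are intensities on a linear scale, scaled by the authors so that the trimmed mean was 500 on every one of the 21 arrays. Changes are differences of log2(intensity + 22.4) with the standard error (SE) of a limma fit over the 20 testis arrays, and a probe set was called where the adjusted p over all 26713 probe sets tested lay below 0.05. Fold changes on this scale understate those of dim genes. A stage mean below 71.61 is called near background, and values there have no order. Pearson correlations between arrays of a stage, over probe sets, ranged from 0.934 to 0.972 at gd11 and from 0.966 to 0.979 at the later stages, and the ratio of 3′ to 5′ actin signal lay between 1.19 and 1.42. The tissue label was checked on Amh, a Sertoli cell hormone, which averaged 9.61 at gd11 (near background), 998.4 at gd12 and 2389 at pnd2. The summed intensity of 8 Sertoli cell markers ranged from 33385 to 42628 at pnd2, from 17591 to 26304 at gd12 and from 2770 to 8255 at gd11. Amh and this sum thus bear out the label from gd12 on and leave it undecided at gd11. There Wt1 ranged from 1086 to 5835 and Sox9 from 501 to 1652, against 2931 to 3531 and 985 to 1159 at pnd2. Of the 8 markers, 6 were called higher at pnd2 than at gd11 and 2 were not called. How far a different tissue makeup at gd11 enters the changes against it was not tested.

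The 3 embryonic globins were all near background by gd18. Hbb-bh1 was called lower from gd12 on, while the first called step between adjacent stages was gd16 against gd14 for Hba-x and Hbb-y. Against gd11, however, Hba-x was already called lower at gd14, and Hbb-y first at gd16. Hbb-bh1 (probe set 1437990_x_at) gave 24609, 26161, 23706, 26930 and 26854 on the gd11 arrays and 4722, 13825 and 6182 at gd12. It gave 575, 727 and 1592 at gd14, 63, 204 and 86 at gd16, 10, 3 and 7 at gd18 and 3, 38 and 5 at pnd2. No array of gd12 reached the lowest gd11 array, and each stage to gd18 lay wholly below the one before it. In whole tissue, fewer cells of a type and less RNA per cell cannot be told apart.

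Hbb-bh1 fell by 1.79 ± 0.36 (SE) on the log2 scale at gd12 against gd11 (limma, adjusted p = 0.00195), the only member gene called in that comparison. It was lower again at gd14 against gd12 (log2 change -3.05 ± 0.41, adjusted p = 5.48e-05) and at gd16 against gd14 (-2.81 ± 0.41, adjusted p = 0.000534). The other 2 probe sets of the gene (1437810_a_at and 1450736_a_at) gave log2 changes of -1.82 and -1.71, then -3.07 and -3.14, then -2.60 and -3.19 for these steps, all called. At gd18 against gd16 only 1437990_x_at was called (-2.15 ± 0.41, adjusted p = 0.006), and without gd16 replicate 8 its change was -1.74 with an adjusted p of 0.0571. The 2 other probe sets gave -1.03 (adjusted p = 0.181) and -1.14 (adjusted p = 0.103) there.

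Hba-x (1448716_at) gave 24003, 26707, 25606, 23833 and 23866 at gd11, and 12500, 27448 and 13533 at gd12. It gave 5278, 6773 and 8320 at gd14, 184, 1212 and 264 at gd16, 24, 9 and 59 at gd18 and 33, 51 and 7 at pnd2. At gd12, replicate 14 lay above every gd11 array while the other 2 lay below them all, so the stages overlapped. The log2 change was -0.57 ± 0.43 at gd12 against gd11 (adjusted p = 0.389) and -1.32 ± 0.48 at gd14 against gd12 (adjusted p = 0.0718). At gd14 against gd11 it was -1.89 ± 0.43 and was called (adjusted p = 0.00181), with no overlap of the arrays. The change at gd14 against gd12 was called once gd16 replicate 8 was left out of the fit (-1.32, adjusted p = 0.0139), although the arrays of gd14 and gd12 did not overlap in either case. Hba-x fell by 4.00 ± 0.48 on the log2 scale at gd16 against gd14 (adjusted p = 0.000125) and was also called lower at gd18 against gd16 (-3.08 ± 0.48, adjusted p = 0.00198). Without gd16 replicate 8 these changes were -4.78 and -2.30, both called.

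Hbb-y (1436823_x_at) gave 31865, 32760, 38281, 33415 and 34326 at gd11, 29925, 37791 and 32638 at gd12, and 37955, 31287 and 32969 at gd14. It gave 1292, 8957 and 1152 at gd16, 30, 47 and 46 at gd18, and 2, 12 and 1 at pnd2. The first 3 stages overlapped fully and the gd16 arrays lay far below them. The log2 change was -0.03 ± 0.41 at gd12 against gd11 (adjusted p = 0.968) and 0.03 ± 0.45 at gd14 against gd12 (adjusted p = 0.977). Hbb-y then fell by 3.82 ± 0.45 at gd16 against gd14 (adjusted p = 0.000116) and by 5.25 ± 0.45 at gd18 against gd16 (adjusted p = 9.75e-06). Without gd16 replicate 8 these changes were -4.77 and -4.30, both called. The dimmer probe set 1450621_a_at averaged 17770 ± 4211 at gd14 (SD, n = 3) and 23980 ± 4218 at gd12, a log2 change of -0.44 ± 0.46 (adjusted p = 0.578).

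Some of these signals lay near the top of the array, where differences can be compressed. Hbb-y 1436823_x_at reached 70.7% to 87.6% of the array's highest value on all 11 arrays from gd11 to gd14 and ranked between 11 and 73 among 45101 probe sets. Hba-x reached 50.8% to 61.8% at gd11, with 1 of 3 arrays above 50% at gd12, and Hbb-bh1 1437990_x_at 47.1% to 63.1% at gd11. No array from gd16 on carried any of the 3 above 22.3% of the maximum. The flat course of Hbb-y to gd14 is therefore a statement about bright signals, and a decrease within that range could go unmeasured.

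**Figure D1:**
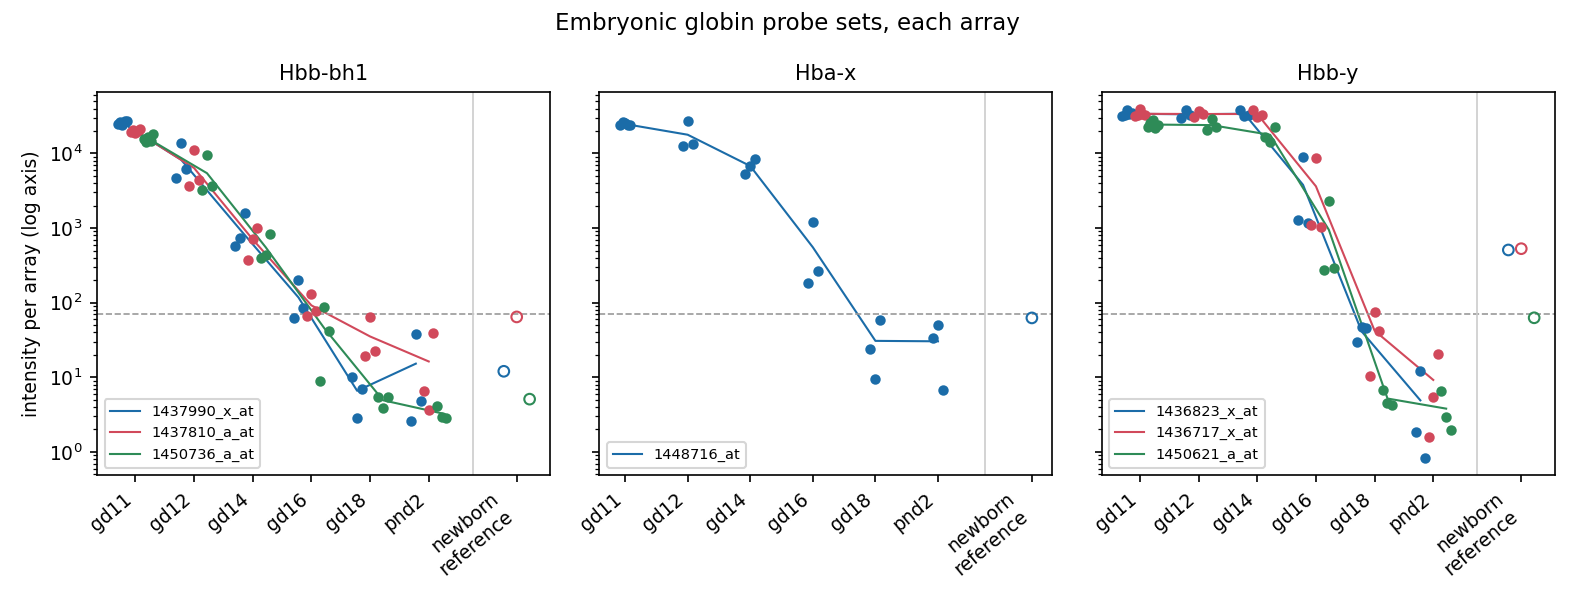
Intensity on each array (log axis) of the probe sets of Hbb-bh1, Hba-x and Hbb-y by stage, with lines through the stage means, open circles for the newborn reference and a dashed line at the near-background level of 71.61. Hbb-bh1 is already lower on all 3 gd12 arrays than at gd11, whereas the lowest Hbb-y value on 1436823_x_at to gd14 is 29925, against 1152 to 8957 at gd16.

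Whether the globins differed in these early steps was tested on the difference between 2 genes within each array, by exact two-sided permutation over arrays, with 8 such tests run after the values were seen. Tests with the brightest Hbb-y probe set are not given in full, since it lay near the array maximum. Among them, Hbb-y and Hba-x at gd12 against gd11 gave an exact p of 0.0714 (adjusted p = 0.0714). On the less bright probe sets 1450621_a_at (Hbb-y) and 1450736_a_at (Hbb-bh1), the log2 change of Hbb-y exceeded that of Hbb-bh1 by 1.67 at gd12 and by 4.37 at gd14, both against gd11 (exact p = 0.0179 each, the smallest that 56 permutations allow, adjusted p = 0.0205). The difference ranged from 1.6 to 2.68 on the gd12 arrays and from 0.40 to 0.85 on the gd11 arrays. That Hbb-y probe set still lay at 51.9% to 66.6% of the maximum at gd12 and 32.8% to 48.2% at gd14, so the gd12 value is the more open to compression. The change of Hba-x exceeded that of Hbb-bh1 by 1.22 at gd12 and 2.95 at gd14, both against gd11 (exact p = 0.0179 each, adjusted p = 0.0205), with Hba-x at 31.3% to 63.6% of the maximum at gd12 and 10.9% to 17.8% at gd14. At gd11 Hba-x lay at 50.8% to 61.8% and the Hbb-bh1 probe set used here (1437990_x_at) at 47.1% to 63.1%. Compression could therefore affect these differences too. Because the tests were chosen after the values were seen, their p-values are no independent support for a difference.

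Over all members, 13 of the 14 probe sets passed the filter on low values. Those of the embryonic globins and of Rhag passed through the stages where they were high, so their counts are given as a description beside those of all probe sets tested. At gd12 against gd11, 0 of 13 were higher and 3 lower, all of Hbb-bh1, beside 10.3% of all probe sets higher and 8.59% lower. At gd14 against gd12, 0 were higher and 4 lower (Hbb-bh1 and Klf1), beside 8.7% and 6.65%. At gd16 against gd14, 1 was higher (Alas2) and 7 lower (all globin probe sets), beside 3.25% and 3.53%.

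At gd18 against gd16, 0 of 13 were higher and 5 lower, beside 1.15% and 2.18% of all. At pnd2 against gd18, 0 were higher and 4 lower (Alas2, Slc4a1 and Klf1), beside 2.01% and 3.6%. At pnd2 against gd11, 1 was higher (Gata1) and 12 lower, beside 21.9% and 22.4%. The median log2 change over the 8 genes, each by its brightest probe set, was -2.99 in that last comparison, against -0.03 over all probe sets tested. Against gd11, 1 was higher (Alas2) and 5 lower (Hbb-bh1, Hba-x and Klf1) at gd14, beside 20.3% and 17.6% of all. At gd16 against gd11, 1 was higher (Alas2) and 9 lower, beside 22.8% and 18.5%. The F-test over the 6 stages called all 13, beside 62.5% of all, with adjusted p-values from 6.77e-14 to 0.0262.

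**Figure D2:**
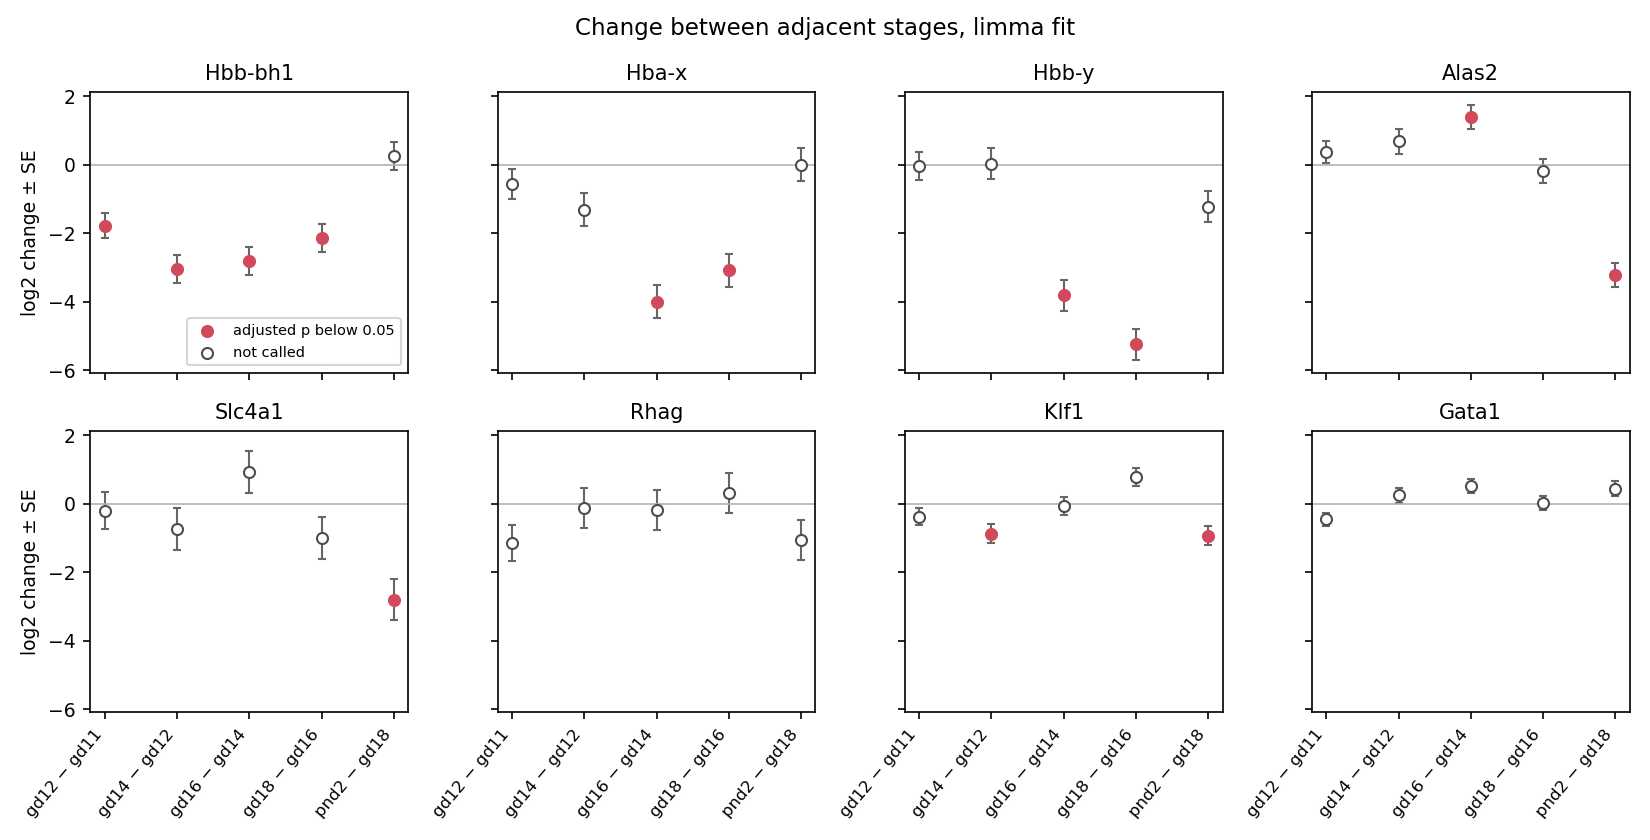
Log2 change with its SE between adjacent stages for 1 probe set of each of the 8 genes, from the limma fit over 20 testis arrays. Filled points have an adjusted p below 0.05. The globins' called changes fall at gd12 to gd18, those of Alas2 are higher at gd16 against gd14 and lower at pnd2 against gd18, and Gata1 and Rhag have none between adjacent stages.

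Several adult-type globin probe sets were higher at the later fetal stages, but not all. The probe set 1417184_s_at, shared by 4 adult beta-type genes (Hbb-bt, Hbb-bs, Hbb-b2 and Hbb-b1), entered no test because it names several genes. It averaged 5324 ± 2018 at gd11 (SD, n = 5), 15100 ± 4934 at gd12, 28220 ± 1453 at gd14, 32370 ± 2475 at gd16, 34320 ± 2055 at gd18 and 14920 ± 2513 at pnd2 (SD, n = 3 each). No gd12 array overlapped gd11, where the highest value was 7506, and no pnd2 array reached the lowest gd18 array (32398).

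Hbb-b2, an adult beta-type globin with a probe set of its own (1427866_x_at), averaged 28.47 ± 20.8 at gd11 (near background), 130.4 ± 61.6 at gd12, 668.6 ± 213.7 at gd14, 1254 ± 385.8 at gd16, 898.4 ± 290.4 at gd18 and 87.47 ± 39.1 at pnd2. It rose by 1.60 ± 0.35 on the log2 scale at gd12 against gd11 (adjusted p = 0.00328) and by 2.22 ± 0.39 at gd14 against gd12 (adjusted p = 0.000733), and fell by 3.07 ± 0.39 at pnd2 against gd18 (adjusted p = 0.00024). At pnd2 against gd11 the change was 1.15 ± 0.35 (adjusted p = 0.0108), although the stages overlapped, and without pnd2 replicate 1 it was 0.88 with an adjusted p of 0.0835. Its second probe set, 1427865_at, averaged between 126.7 and 223.9 at every stage and was called in none of these comparisons, so the 2 disagree. These genes are near-identical copies, and hybridisation between them was not tested.

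Of the 3 probe sets shared by Hba-a1 and Hba-a2, 2 were bright from gd11 on. These, 1428361_x_at and 1452757_s_at, averaged 29200 ± 2773 and 27360 ± 2352 at gd11, 36730 ± 3025 and 35890 ± 2929 at gd18, and 19630 ± 3128 and 20250 ± 1541 at pnd2. They lay between 41.5% and 87.2% of the array maximum, so an increase before birth could be compressed. The remaining shared probe set, 1417714_x_at, varied between 5799 and 36513 among the 3 gd14 arrays alone, and its highest value on any array was 100% of that array's maximum. The probe sets of single alpha genes did not follow these. Hba-a2 1427219_at averaged 95.3 at gd11, 52.9 at gd18 and 77.9 at pnd2 and was called in none of the adjacent comparisons, and Hba-a1 1453574_at was near background at every stage. On all 3 shared alpha probe sets and the shared beta one, every pnd2 array lay below every gd18 array.

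**Figure D3:**
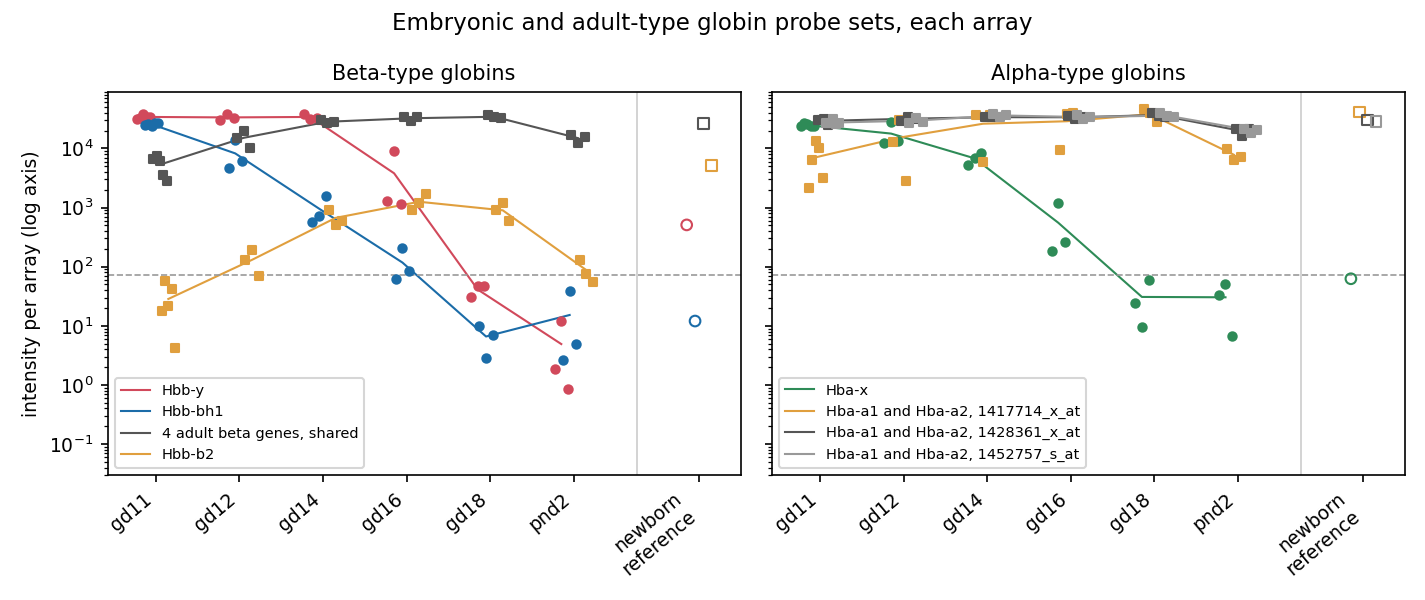
Intensity on each array (log axis) of embryonic (circles) and adult-type (squares) beta and alpha globin probe sets by stage, the dashed line marking 71.61, with lines through stage means and open symbols for the newborn reference. The shared adult beta probe set averages 34320 at gd18 and 5324 at gd11, while Hbb-y averages 41.2 at gd18 and 34130 at gd11. Every adult-type probe set drawn has a lower mean at pnd2 than at gd18; Hba-a2 1427219_at, Hba-a1 1453574_at and Hbb-b2 1427865_at are not drawn.

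Alas2, the red cell enzyme at the start of haem synthesis, was highest at gd16 and gd18. It gave 386, 475, 350, 378 and 375 at gd11, 377, 1075 and 316 at gd12, and 828, 813 and 841 at gd14 (probe set 1451675_a_at). It gave 1554, 2250 and 3038 at gd16, 2020, 3266 and 1082 at gd18, and 217, 184 and 160 at pnd2. All pnd2 arrays lay below all others, and all gd16 and gd18 arrays lay above gd14. Alas2 was called higher at gd16 against gd14 (log2 change 1.39 ± 0.36, adjusted p = 0.0257), but that call was lost without any 1 of gd14 replicates 10, 11 or 12 or gd16 replicates 8 or 9 (1.16 to 1.40, adjusted p from 0.0612 to 0.144). It was called higher at gd16 against gd11 (2.43 ± 0.32, adjusted p = 6.12e-06).

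At pnd2 Alas2 averaged 187.1 ± 28.1, against 2123 ± 1096 at gd18 (SD, n = 3 each), and fell by 3.23 ± 0.36 on the log2 scale (adjusted p = 8.43e-05). At pnd2 against gd11 it was lower (-0.99 ± 0.32, adjusted p = 0.0175), a call lost without pnd2 replicate 3 (-0.89, adjusted p = 0.0711). At gd14 against gd12 the change of 0.68 was not called (adjusted p = 0.221). Without gd12 replicate 14, whose value of 1075 stood above the others of its stage, it was 1.21 with an adjusted p of 0.0164.

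Of 10 other haem synthesis genes tested, 0 were called at gd16 against gd14, the step at which Alas2 was called higher. The shares of all probe sets there were 3.25% higher and 3.53% lower, so 0 of 10 lies near the background. At pnd2 against gd18, 0 rose and 1 fell, beside 2.01% and 3.6% of all. At pnd2 against gd11, 3 were higher and 2 lower, beside 21.9% and 22.4% of all probe sets, a share near the background. Alas1, the enzyme of the same step in other tissues, rose by 2.03 ± 0.17 at gd14 against gd12 (adjusted p = 3.74e-07), averaging 5165 ± 959.5 at gd14 and 1237 ± 70.5 at gd12, and fell at pnd2 against gd18 (-1.09 ± 0.17, adjusted p = 0.00113). Among 10 iron and erythropoietin genes, Slc25a37 (mitoferrin, the mitochondrial iron importer) averaged 2087 ± 622.2 at gd16 and 890.3 ± 73.2 at gd14, a log2 change of 1.17 ± 0.31 (adjusted p = 0.0269), a call lost without any 1 of gd14 replicates 10, 11 or 12 or gd16 replicates 8 or 9. Slc25a37 fell by 2.19 ± 0.31 at pnd2 against gd18 (adjusted p = 0.000569). Hmox1, which breaks haem down, was 1.99 ± 0.20 higher at pnd2 than at gd11 (adjusted p = 9.9e-08).

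Slc4a1, the red cell anion exchanger, was called between adjacent stages only at pnd2 against gd18. Its probe set 1434502_x_at gave 737, 893, 658, 717 and 725 at gd11, 510, 1289 and 395 at gd12, and 387, 391 and 349 at gd14. It gave 448, 1008 and 886 at gd16, 190, 1839 and 117 at gd18, and 29, 28 and 40 at pnd2, where it was near background. Of the gd18 arrays, replicate 5 stood above every other testis array and the other 2 below every gd16 array. The change at pnd2 against gd18 was -2.80 ± 0.61 (adjusted p = 0.0114), and it was -1.65 without gd18 replicate 5 (adjusted p = 0.0188) and -3.52 without replicate 6 (adjusted p = 0.00461). At gd18 against gd16 the change was -0.998 ± 0.61 with all arrays and was not called (adjusted p = 0.453). Without gd18 replicate 5 it was -2.14 with an adjusted p of 0.00698, and without gd18 replicate 6 it was -0.273 (adjusted p = 0.875). At gd16 against gd14, where the arrays did not overlap, the change of 0.94 ± 0.61 was not called (adjusted p = 0.405), but was in a fit of these 2 stages alone (adjusted p = 0.0243). At pnd2 against gd11 Slc4a1 fell by 3.80 ± 0.54 (adjusted p = 1.16e-05), and 1416464_at gave -3.67 ± 0.49 (adjusted p = 4.89e-06). Its dimmest probe set, 1431743_a_at, was near background at every stage mean and was not tested.

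Rhag, the Rh-associated glycoprotein of the red cell membrane, was dim. It gave 129, 160, 103, 87 and 126 at gd11 (1419014_at), 32, 90 and 21 at gd12, and 24, 43 and 46 at gd14. It gave 43, 50 and 8 at gd16, 2, 223 and 23 at gd18, and 20, 10 and 0.44 at pnd2. All means after gd11 except that of gd18 were near background, and the gd18 mean of 82.7 rested on replicate 5. No adjacent change was called, and at pnd2 against gd11 Rhag fell by 2.17 ± 0.53 (adjusted p = 0.00234). Rhag lay above the filter level on 7 testis arrays, among them all 5 of gd11, so its changes against gd11 are given only as a description. The change at gd12 against gd11 of -1.14 ± 0.53 was not called (adjusted p = 0.139), but was without gd18 replicate 5 (adjusted p = 0.0391).

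Of 17 other red cell membrane and surface genes tested, 2 were higher and 12 lower at pnd2 than at gd11, beside 21.9% and 22.4% of all probe sets tested. Their median log2 change was -1.14, against -0.03 over all. Cd24a, a surface protein of early red cells that other embryonic cells also carry, averaged 1929 ± 145.9 at pnd2 and 19930 ± 1428 at gd11, a log2 change of -3.35 ± 0.15 (adjusted p = 1.62e-12). The log2 change was -2.13 ± 0.40 for Kel, a blood group antigen (adjusted p = 0.000253), -1.87 ± 0.22 for Dmtn, which binds actin at the membrane (adjusted p = 1.05e-06), and -1.65 ± 0.39 for Trim10 (adjusted p = 0.00202). At gd16 against gd14 none of the 17 was called, beside 3.25% of all probe sets higher and 3.53% lower. Rhd, a Rh family protein like Rhag, rose by 1.55 ± 0.22 at gd14 against gd12 (adjusted p = 0.000102) and fell at pnd2 against gd18 (-1.48 ± 0.22, adjusted p = 0.000801). At pnd2 against gd18, 0 of the 17 rose and 4 fell, beside 2.01% and 3.6% of all probe sets.

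Among 8 red cell enzymes tested, 3 were higher and 4 lower at pnd2 than at gd11, beside 21.9% and 22.4% of all probe sets. Car2, a carbonic anhydrase, had a log2 change of -3.41 ± 0.47 (adjusted p = 7.59e-06), while Blvrb, a biliverdin reductase of red cells, was 1.18 ± 0.14 higher (adjusted p = 1.62e-06). At pnd2 against gd18 the change of Car2 was -2.39 ± 0.52 (adjusted p = 0.0121), and without gd18 replicate 5 it was -1.41 (adjusted p = 0.0213).

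**Figure D4:**
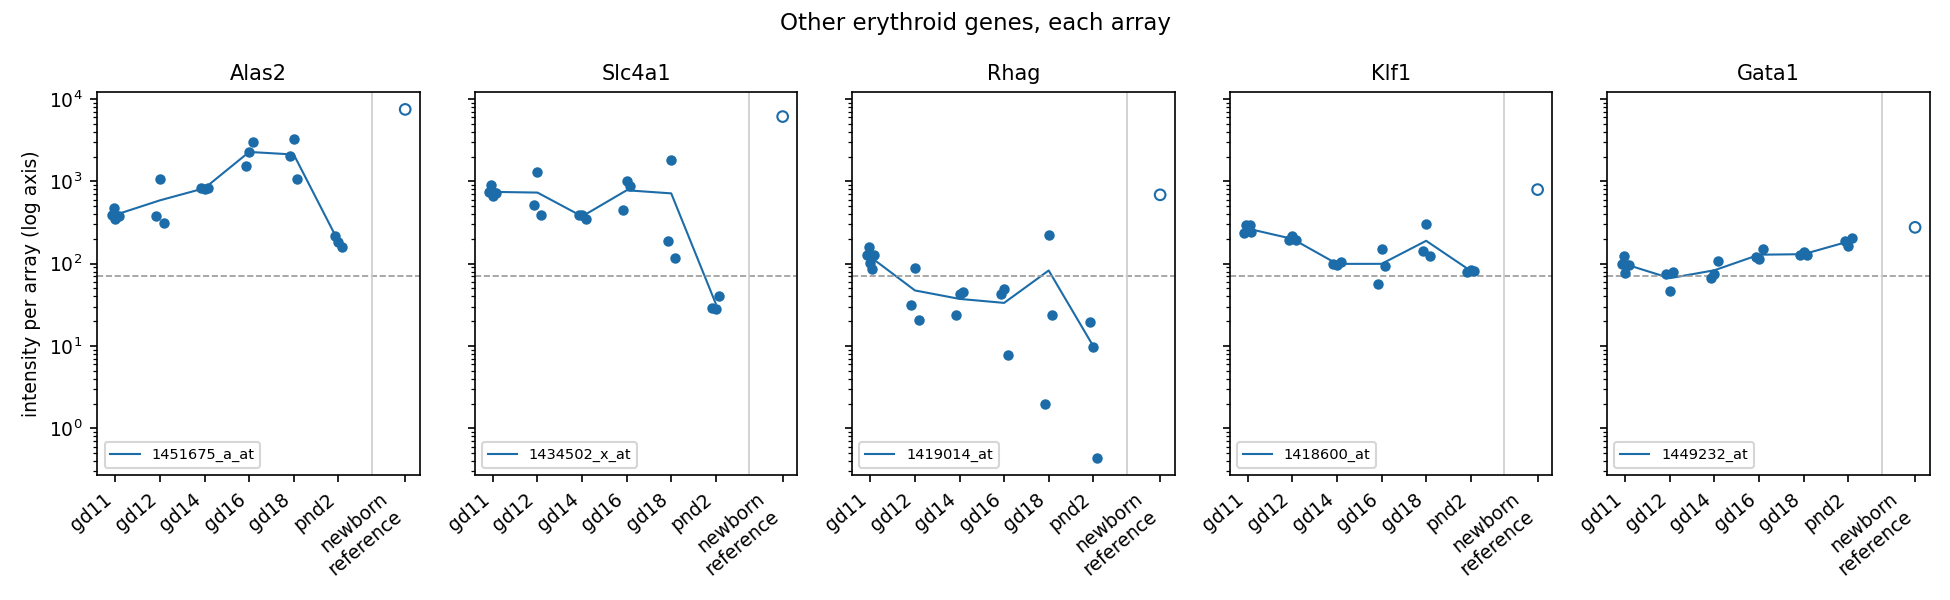
Intensity on each array (log axis) of Alas2, Slc4a1, Rhag, Klf1 and Gata1 by stage, with lines through stage means, open circles for the newborn reference and a dashed line at 71.61. Alas2 peaks at gd16 and gd18 with means of 2280 and 2123. The gd18 values of Slc4a1 and Rhag spread widely because 1 array, replicate 5, lies at 1839 and 223. All 5 genes are highest in the reference.

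Klf1, an activator of adult-type globin genes, was low throughout. It gave 235, 299, 257, 299 and 244 at gd11 (1418600_at), 192, 216 and 192 at gd12, and 99, 95 and 104 at gd14. It gave 56, 150 and 93 at gd16, 142, 304 and 123 at gd18, and 80, 83 and 82 at pnd2. The gd12 arrays lay below gd11 and above gd14 with no overlap. Klf1 was called lower at gd14 against gd12 (-0.87 ± 0.27, adjusted p = 0.0341) and at pnd2 against gd18 (-0.93 ± 0.27, adjusted p = 0.0476). The first call was lost without any 1 of the gd12 or gd14 arrays (-0.82 to -0.89, adjusted p from 0.0664 to 0.0953), and with all arrays kept under no filter (0.0504) and median centring (0.0564). The second was lost on leaving out 16 of the 20 arrays in turn, with the smallest change without gd18 replicate 5 (-0.57, adjusted p = 0.215). It was also lost, with adjusted p from 0.0501 to 0.143, under no filter, offsets of 1 and 100, quantile normalization, median centring, no intensity trend and a fit of the 2 stages alone. At pnd2 against gd11 Klf1 fell by 1.47 ± 0.24 (adjusted p = 5.5e-05).

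Gata1 was the only member higher at pnd2 than at gd11. It gave 100, 124, 78, 96 and 95 at gd11 (1449232_at), 74, 47 and 78 at gd12, and 68, 74 and 108 at gd14. It gave 121, 114 and 150 at gd16, 127, 137 and 127 at gd18, and 187, 164 and 206 at pnd2. Every pnd2 array lay above every other testis array. No adjacent change was called, and at pnd2 against gd11 Gata1 rose by 0.79 ± 0.19 on the log2 scale (adjusted p = 0.00207). Its cofactor Zfpm1 averaged 1948 ± 34.9 at pnd2 and 594.0 ± 211.1 at gd11 and was also higher. The summed Sertoli cell markers given above were higher over the same stages, and their part in the Gata1 result was not tested.

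Of 15 other erythroid transcription factors and cofactors tested, 2 were higher and 10 lower at pnd2 than at gd11, beside 21.9% and 22.4% of all probe sets, with a median log2 change of -0.68. Hemgn, a nuclear protein of early blood cells, averaged 9.81 ± 4.3 at pnd2 (near background) and 348.1 ± 98.8 at gd11, a log2 change of -3.49 ± 0.55 (adjusted p = 3.79e-05). The change was -3.32 ± 0.24 for Bcl11a, known for silencing embryonic globin genes (adjusted p = 1.7e-09), and -2.26 ± 0.25 for Tal1, which is needed to form the blood lineage (adjusted p = 5.6e-07). Cbfa2t3, a corepressor that binds Tal1, was 2.20 ± 0.17 higher (adjusted p = 4.06e-09). At gd12 against gd11, 0 rose and 3 fell, beside 10.3% and 8.59% of all probe sets. Those that fell included Bcl11a (-1.95 ± 0.24, adjusted p = 1.96e-05) and Hemgn (-2.13 ± 0.55, adjusted p = 0.0107). Hemgn ranged from 207 to 458 at gd11 and from 52 to 70 at gd12. Like Rhag, it passed the filter on low values mainly through the gd11 arrays. Its changes against gd11 and its place in the counts against gd11 are therefore given only as a description. At pnd2 against gd18, 0 rose and 4 fell, beside 2.01% and 3.6% of all probe sets. The count called was 0 without gd18 replicate 5, where 871 of all 26713 probe sets were called, so 0 of 15 lies near that share.

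Single arrays stood apart from the others of their stage, and not for the same genes. At gd12, replicate 14 was the highest of 3 for 12 of the 13 member probe sets, beside 34% of all probe sets tested, with Hbb-bh1 at 2.54 times, Hba-x at 2.11 times and Alas2 at 3.11 times the mean of the others. At gd16, replicate 8 was the highest for 10 of 13 (30.4% of all), with Hbb-y at 7.33 times and Hba-x at 5.41 times the others but Alas2 at 0.98 and the shared adult beta probe set at 0.87 times. At gd18, replicate 5 was the highest for 9 of 13 (28.8% of all), with Slc4a1 at 12 times the others and Rhag at 223, against near-background values of 2 and 23. The 9 include embryonic globin probe sets, whose values there were near background and have no order. By gene, gd18 replicate 5 was the highest for 6 of 8. The shared adult beta probe set lay at 0.99 times the others. Replicate 12 of gd14 was the highest for 10 of 13 (33.2% of all).

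**Figure D5:**
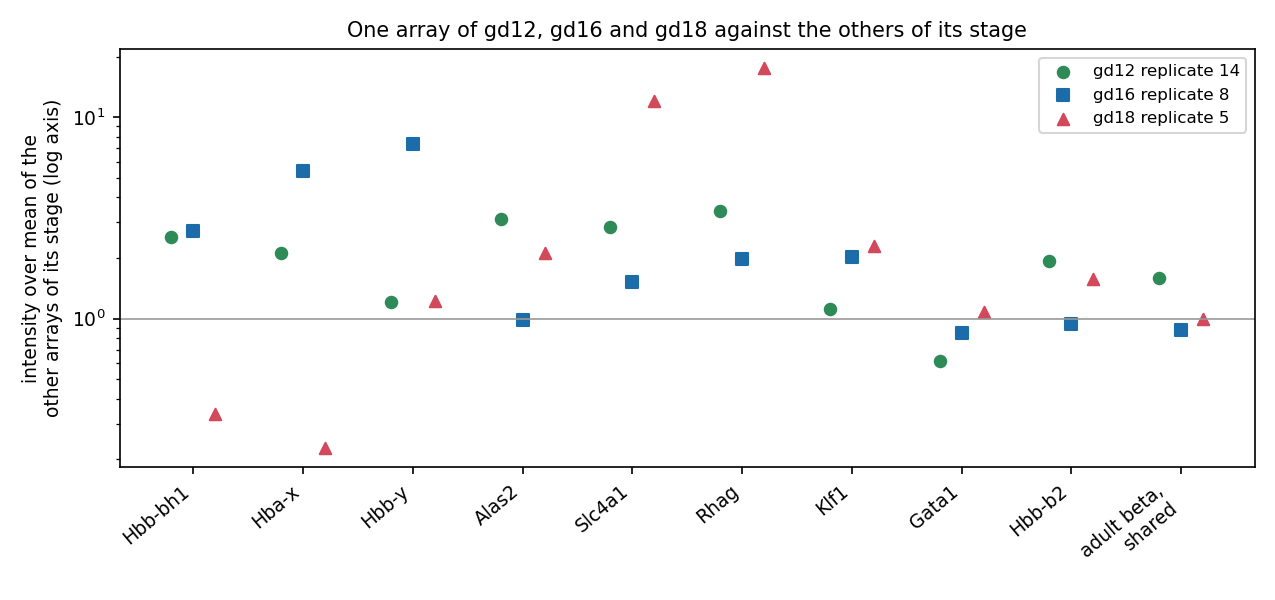
Intensity of gd12 replicate 14, gd16 replicate 8 and gd18 replicate 5 as a multiple of the mean of the other arrays of the same stage (log axis), for 1 probe set of each of the 8 genes, Hbb-b2 and the shared adult beta probe set. The gd16 array is highest in Hbb-y (7.33) and Hba-x (5.41) with Alas2 at 0.98, and the gd18 array in Slc4a1 (12). The embryonic globins at gd18 and Rhag at gd12, gd16 and gd18 are ratios over near-background values and carry no size.

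Deviations of the arrays from their stage means are described over 20 arrays that share 6 stages, with no test. The Pearson correlation of these deviations was 0.79 between Hbb-y and Hba-x and 0.76 between Hbb-bh1 and Hba-x. It was 0.55 between Hbb-y and Hbb-bh1. Among Alas2, Slc4a1, Klf1 and Rhag it ranged from 0.51 (Alas2 and Rhag) to 0.83 (Slc4a1 and Klf1). Between an embryonic globin and Alas2, Slc4a1, Rhag or Klf1 it ranged from -0.05 (Hba-x and Slc4a1) to 0.57 (Hbb-y and Klf1), so the ranges within and between the 2 sets overlap. Gata1 lay between -0.35 and 0.05 with every other member. Single arrays weigh on these coefficients. At gd16 replicate 8 Hbb-y deviated by 1.90 and Hba-x by 1.56, and at gd18 replicate 5 Slc4a1 deviated by 2.29 and Klf1 by 0.72. The embryonic globin values of gd18 and pnd2 that enter here were near background.

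The newborn reference was 1 array with no replicate and thus no test. By their brightest probe sets, Slc4a1, Rhag, Klf1, Alas2 and Gata1 were higher there than on any testis array. Slc4a1 read 6136 there, which is 3.34 times the highest testis array, Rhag 687 (3.09 times), Klf1 795 (2.61 times), Alas2 7498 (2.3 times) and Gata1 276 (1.34 times). The dimmest Slc4a1 probe set, 1431743_a_at, read 6.68 there, which is 0.0387 times the highest testis array. At pnd2 the testis mean was lower than the reference by log2 differences of -6.81 for Slc4a1, -5.17 for Alas2, -4.50 for Rhag, -2.97 for Klf1 and -0.53 for Gata1. Past a fold of 2, 20.8% of all probe sets tested were higher and 13.8% lower in pnd2 testis. Of the embryonic globins, Hbb-y was also lower at pnd2, averaging 4.92 ± 6.22 (SD, n = 3) against 509 in the reference, a log2 difference of -4.305. Its probe set 1436717_x_at read 530 in the reference, but 1450621_a_at read 62.8, below 71.61. Hbb-bh1 (15.3 ± 20.0 at pnd2 and 12 in the reference) and Hba-x (30.4 ± 22.3 and 63) were near background in both. Hbb-b2 averaged 87.5 at pnd2 and read 5145 in the reference, a log2 difference of -5.61 on 1427866_x_at, but its probe set 1427865_at ran the other way (126.7 at pnd2 and 49.9 in the reference, a difference of 1.01). The shared adult beta probe set averaged 14920 at pnd2 and read 26434 in the reference, a difference of -0.84. Against the highest testis array the reference was lower on that probe set (0.725 times). It was also lower on the 3 probe sets shared by Hba-a1 and Hba-a2 (0.736 to 0.891 times).

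By correlation over the 20 testis arrays (log2 values, 1 probe set per gene), the genes whose pattern was most like that of Hbb-bh1 were Tgfbr1, Ywhaq, Hmga2, E2f5 and Hba-x, with Pearson coefficients from 0.965 to 0.967. After removal of the stage means the coefficient stayed at 0.76 for Hba-x but was between -0.40 and 0.26 for the other 4, so their likeness lies mainly in the course over stages. For Alas2 they were Slc25a37 (0.92), Cfap57 (0.86), Baiap3 (0.85), Hbb-b2 (0.85) and Rhd (0.85). After removal of the stage means the coefficients were 0.79 for Slc25a37, 0.69 for Hbb-b2 and 0.61 for Rhd, against 0.16 for Cfap57 and -0.35 for Baiap3. These are descriptions over arrays of the same 6 stages and were not tested.

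Genes of other blood and vessel cells also changed over these stages. At pnd2 against gd11, the counts stand beside 21.9% of all probe sets higher and 22.4% lower. Of 10 platelet and megakaryocyte genes tested, 0 were higher and 9 lower at pnd2 than at gd11, and their summed intensity over 11 genes ranged from 1016 to 1175 at pnd2 and from 2981 to 4959 at gd11. Of 12 endothelial genes, 2 were higher and 8 lower, with sums of 4669 to 5319 at pnd2 and 4951 to 12119 at gd11. Against gd18, 0 of these rose and 5 fell at pnd2, beside 2.01% and 3.6% of all probe sets. Of 12 macrophage genes, 4 were higher and 0 lower at pnd2 than at gd11. The sum of 7 liver genes ranged from 1393 to 1894 at pnd2 and from 155 to 1302 at gd11, and 2 of 5 tested were higher and 0 lower at pnd2 than at gd11. That sum rests on Afp, which averaged 1342 at pnd2 and 355.2 at gd11, while Alb, Apoa1, Apoa2, Ttr and Fgb were near background at pnd2. The part of these cell types in the red cell results was not tested.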

How the data were processed

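Whole testes and 1 pool of whole newborns were profiled on Affymetrix arrays with 45101 probe sets. The deposited intensity values are linear and came from GCOS, per the submitters' processing notes. Version, algorithm and genome build: not given in the sources used here. After trimming the lowest and highest 2% of its values, each array averaged 500. Of the probe sets, 34945 carried 1 gene symbol, 932 several, 9160 none and 64 were controls, and 34741 symbols matched through their Entrez identifier while 204 were kept as given.

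Values were transformed to log2(intensity + 22.4), with an offset equal to the testis arrays' 20th percentile. A probe set with 1 symbol was tested if 3 or more of the 20 testis arrays had it above that array's own 40th percentile (26713 were). One limma fit (version 3.58.1, R 4.3.3; lmFit and eBayes with trend, 14 residual and 5.42 prior degrees of freedom) held 6 stage means, with Benjamini-Hochberg adjustment within each comparison. The code was tested on simulated data. Array number limits the precision, and where arrays are not from separate animals the p-values measure only the spread between them. The labels name no batch that splits the arrays. All probe sets of a member were kept, and the brightest on average leads the text. Of each other list, at most 4 called genes with the largest change in a comparison were named, and the 5 genes most correlated with Hbb-bh1 and with Alas2. Amh, Zfpm1 and the neutrophil and platelet genes were named after their values were seen. The members and lists were chosen with earlier results of these data known. Alternatives were other offsets, scalings, filters, array weights, 1 probe set per gene, fits on the stages compared only, and arrays left out.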

Additional observations from a re-analysis of the deposited data

Results flagged for a closer look

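One value stood outside its stage. Alas2 in gd11 replicate 17 read 474.68, against 350.25 to 385.85 on the other 4 gd11 arrays, and its gap to the nearest of them made up 0.714 of the stage's range, just above the limit for 5 arrays. Of 14 gd11 probe set groups checked this way, this was the only one past the limit, and chance alone would place about 1 in 20 such groups past it. The same array was the highest of the gd11 arrays for 6 of the 13 member probe sets, beside 14.8% of all probe sets tested.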

How the results depend on the processing

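No paired analysis was possible because replicate numbers run from 1 to 20 over the testis arrays and no 2 stages share a number. Of the counts of called member probe sets, 221 stayed within 1.5 times their value and 7 did not. With 1 probe set per gene the counts were 1 (gd12 against gd11), 2 (gd14 against gd12), 4 (gd16 against gd14), 3 (gd18 against gd16), 8 (pnd2 against gd11) and 8 (F-test), out of 8 probe sets rather than 13. Of all 14338 probe sets in that setting, 3067, 2681, 1488, 700 and 6965 were called in these stage comparisons, in that order. With gd12 replicate 14, gd16 replicate 8 and gd18 replicate 5 left out together, an alternative chosen after seeing the data, 5 were called at gd12 against gd11, Hba-x (-0.93, adjusted p = 0.0394) and Rhag (-1.55, adjusted p = 0.0165) being added. Of all 26713 probe sets, 3092 were called there. Of the members' changes, 1445 kept direction and side of the threshold, 43 lost a call, 15 gained one and 33 changed sign. None of those that changed sign had been called. They were, at gd12 against gd11, Hbb-y (quantile normalization 0.0734, leave-one-out -0.124 to 0.0442), Alas2 (-0.289 with gd12 replicate 15 alone, -0.169 with the 3 arrays left out, leave-one-out -0.169 to 0.68) and Slc4a1 (leave-one-out -0.698 to 0.128). At gd14 against gd12 they were Hbb-y (quantile normalization -0.131, leave-one-out -0.0519 to 0.12) and Rhag (0.45 with gd12 replicate 15 alone, 0.287 with the 3 arrays left out, leave-one-out -0.402 to 0.287). At gd16 against gd14 they were Klf1 (leave-one-out -0.357 to 0.209) and Rhag (leave-one-out -0.408 to 0.218). At gd18 against gd16 they were Rhag (-0.0901 with an offset of 1, -0.408 with the 3 arrays left out, leave-one-out -0.641 to 1.02), Alas2 (array weights 0.0599, leave-one-out -0.565 to 0.223) and Gata1 (-0.0743 with the 3 arrays left out, leave-one-out -0.0425 to 0.125). At pnd2 against gd18 they were Hba-x (quantile normalization 0.18, median centring 0.167, array weights 0.265, leave-one-out -0.319 to 0.375) and Hbb-bh1 (leave-one-out -0.143 to 0.495). Median centring moved the median change of all probe sets to -0.11 (gd12 against gd11) and 0.13 (pnd2 against gd18). Hba-x at gd18 against gd16 was -1.98 (adjusted p = 0.0152) without the 3 arrays. Signals near the array maximum or near background limit what the globin values can show at both ends. The cause of these shifts was not tested.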

Other observations

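Neutrophil genes were called higher at the same step as Alas2. Of 8 tested, 4 rose and 0 fell at gd16 against gd14, beside 3.25% and 3.53% of all probe sets, S100a8 by 3.31 ± 0.49 on the log2 scale (adjusted p = 0.000584), S100a9 by 3.13 ± 0.55 (adjusted p = 0.00216), Camp by 2.38 ± 0.43 (adjusted p = 0.00264) and Ngp by 1.68 ± 0.35 (adjusted p = 0.00715, limma). These encode calcium-binding and antimicrobial granule proteins of neutrophils. Their summed intensity ranged from 2806 to 4123 at gd16 and from 455 to 949 at gd14. Camp ranged from 8 to 25 at gd14 and from 170 to 213 at gd16, and no array before gd16 exceeded 62. Camp thus passed the filter on low values through the stages from gd16 on. Its change at gd16 against gd14 and its place in that count are therefore given only as a description. At pnd2 against gd18, 0 rose and 2 fell, beside 2.01% and 3.6% of all probe sets. Ngp was among those that fell (-1.42 ± 0.35, adjusted p = 0.0227).

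Of 10 platelet genes tested, 0 rose, 4 fell and 6 were not called at gd12 against gd11, beside 10.3% and 8.59% of all probe sets higher and lower, among them Ppbp, a platelet chemokine (-1.42 ± 0.26, adjusted p = 0.000915), and Pf4, platelet factor 4 (-1.24 ± 0.24, adjusted p = 0.00156). Their sum ranged from 1747 to 1812 at gd12 and from 2981 to 4959 at gd11. At pnd2 Clec1b, a platelet receptor, was lower than at gd11 (-4.07 ± 0.37, adjusted p = 3.62e-08). Whether the same arrays or animals carry the changes of red cell, neutrophil and platelet genes was not tested.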
